A study of Rattus norvegicus with 12 samples.

Results

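The cytosolic ribosomal protein genes were followed in denervated rat calf muscle. Members were all genes whose symbol in the platform's annotation begins with Rpl or Rps and a digit, or is Rplp0 or Rpsa, with the Rps6k kinases left out and only probe sets that name 1 gene used. This gave 57 probe sets for 50 genes, of 14217 genes named in this way, and the brightest probe set on average stood for each gene. The large subunit had 34 members and the small subunit 16. Of these, 29 and 13 were standard ribosomal proteins, and 4 and 2 were paralogs (Rpl3l, Rpl7l1, Rpl26l1 and Rpl39l1, Rps27l and Rps4y2). By its symbol, 1 in each subunit was a pseudogene (Rpl37-ps2 and Rps4x-ps1). A further 36 probe sets with a ribosomal protein symbol name several genes and were left out, so 27 ribosomal protein symbols, Rps27, Rpl10 and Rpl36a among them, were not analysed here.

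The tissue was gastrocnemius from male rats of the Wistar-Hannover strain after section of the left sciatic nerve. All 4 groups carried the nerve section, and no innervated muscle was among them. One pair of groups received vehicle or nandrolone, an anabolic androgen, for 7 days from the day of surgery and was taken at day 7. The other pair received the same agents for 7 days, beginning 29 days after surgery, and was taken at day 35. There were 3 samples in each group, and each was hybridised to its own Affymetrix array, giving 12 arrays. Age at surgery and the nandrolone dose are not given in the sources used here. Because no innervated muscle stands beside either day, age and time after nerve section cannot be told apart.

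The ribosome translates messenger RNA into protein. Its small subunit decodes the message and its large subunit joins the amino acids. Most vertebrate ribosomal proteins are made in equal amounts from messages of very high abundance, and many of these messages begin with a cytosine and a run of pyrimidines, the terminal oligopyrimidine (TOP) tract, through which mTOR signalling controls their translation. Muscle growth and atrophy are accompanied by changes in ribosome content. Rpl3 encodes a large subunit protein that reaches toward the peptidyl transferase centre. Rpl3l is its paralog in skeletal muscle and heart, and in mouse muscle it takes the place of Rpl3 in part of the ribosomes.

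The start of the transcript is the sequence feature most often tied to this family, so 4 starts with a tract and the starts of Rpl3 and Rpl3l are shown. Each sequence runs from 10 bases before the annotated start through the first 20 transcribed bases, and capitals mark a tract, defined as C at the first transcribed base followed by at least 4 C or T bases.
Rpl19: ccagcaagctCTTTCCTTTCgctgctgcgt
Rpl35a: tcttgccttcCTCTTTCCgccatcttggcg
Rplp0: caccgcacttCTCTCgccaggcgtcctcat
Rps15: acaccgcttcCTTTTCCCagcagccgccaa
Rpl3: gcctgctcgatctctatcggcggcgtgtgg
Rpl3l: ctggtgcctggtggggaggtcccttcctaa
These lie, in RefSeq's GRCr8 assembly, at chr10:83519054-83519083 on the plus strand for Rpl19, chr11:81235002-81235031 on the minus strand for Rpl35a, chr12:46718371-46718400 on the minus strand for Rplp0, chr7:10068096-10068125 on the minus strand for Rps15, chr7:113507971-113508000 on the minus strand for Rpl3 and chr10:14258436-14258465 on the plus strand for Rpl3l. Of the 50 members 41 had an entry in the RefSeq promoter table, and those without one were Rpl7, Rpl23a, Rpl27, Rpl30, Rpl37a, Rpl37-ps2, Rps4x-ps1, Rps9 and Rps29. The search was made on the transcribed strand only. A tract at the annotated start was present in 11 of 41 members, or 26.8%, against 550 of 21851 protein-coding genes, or 2.52%. Allowing the tract to begin within 5 bases on either side gave 20 of 41 members, or 48.8%, against 16.5% of all protein-coding genes. None of the 6 paralogs with an entry had a tract at the annotated start, and 1 of them, Rps4y2, had one within 5 bases.

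The arrays differed in scale, so values below are log2(signal + 16) after quantile normalization, which gives every array the same distribution. The median deposited signal was 44.8 to 63.5 on 11 arrays and 111 on nandrolone day 35 replicate 3. That array also had the lowest mean correlation with the others of its group, 0.937 after normalization, while the 12 arrays ranged up to 0.975. Its actin control had the lowest ratio of 3' to 5' signal, a sign of RNA quality, at 1.9. The ratio was 2.68 to 3.71 in the vehicle day 35 group, 1.9 to 2.57 in the nandrolone day 35 group and 2.08 to 2.81 at day 7. All 10 skeletal muscle markers, Acta1 and Ckm among them, were measured, and their summed signal after normalization ranged from 122620 to 132232 over the arrays. Normalization gives every array the same top values, so a sum over bright probe sets can vary little. From day 7 to day 35, 1 of these 10 markers was called lower under vehicle and 1 over both treatments, by the threshold given below. RNA came from whole muscle, so fewer cells of a type and less RNA per cell cannot be told apart. Each ± gives the standard error of limma's fit to groups of 3 arrays, and a change was called at an adjusted p under 0.05 over all 18625 probe sets tested. The labels number the samples of a group but do not say whether each came from a separate rat, so p-values measure only the spread between these samples, which may be technical.

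Most ribosomal protein messages gave signals at the top of the array and varied little. Of the 50 members 46 passed the filter on low signal, which left out the dimmest 40% of probe sets, and 38 standard members had a mean above 12 on the log2 scale, from percentile 99.0 of all probe sets upward. Their deposited signals lay between 3198.5 and 17218.5, while the highest signal on an array ranged from 18309.1 to 22183. The median standard deviation of these 38 genes over the 12 arrays was 0.099, against 0.193 for the 379 other probe sets as bright and 0.336 for all probe sets tested. Of those 379 probe sets 31 were called in the comparison of days under vehicle. Ribosomal protein probe sets that name several genes were not excluded from the 379, and how many it held was not counted. A compression of changes near the top of the signal range was not tested. The 4 members below the filter were Rps13, Rpl30, Rpl39l1 and Rps4x-ps1. The filter stood at 5.56, with Rpl30 just outside it at 5.52 and Rpl28 just inside at 5.66. Rps13, Rpl30 and Rpl28 encode standard proteins, but the probe sets that name them alone were dim. Rpl39, also a standard member, passed the filter but had a mean of only 7.43, at percentile 68.3. Whether these probe sets measure the main message of their genes was not tested.

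**Figure D1:**
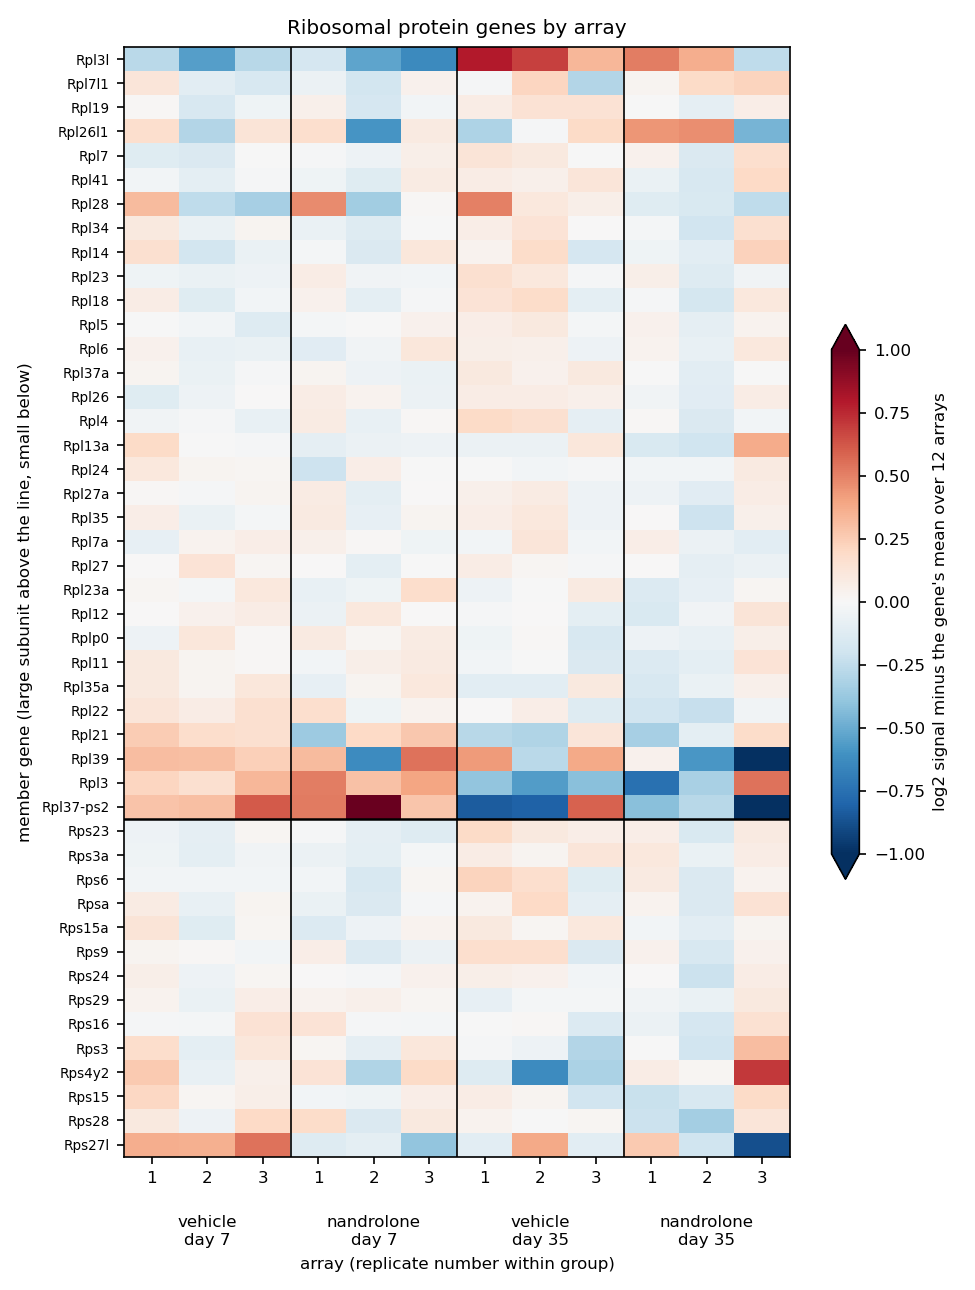
Each row is 1 of the 46 members tested and each column 1 of the 12 arrays, and colour gives the log2 signal minus the gene's mean over the arrays. Most rows are pale, while Rpl3l is low in both day 7 groups and high on 5 of the 6 day 35 arrays, and Rpl3 shows the opposite.

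Rpl3l rose between day 7 and day 35 without the drug. Its log2 signals were 11.62, 11.34 and 11.61 in vehicle day 7 and 12.68, 12.57 and 12.22 in vehicle day 35, so the days did not overlap. The change was 0.97 ± 0.20, a 1.96-fold rise (adjusted p = 0.0198). It was the single call among the 46 tested members, where 5.61% of all probe sets tested were called: 3.44% as higher and 2.17% as lower. Rpl3, its standard counterpart, had 12.83, 12.77 and 12.94 at day 7 and 12.22, 12.05 and 12.19 at day 35, again with no overlap. Its change of -0.69 ± 0.24 did not pass the test over all probe sets (adjusted p = 0.104), and its 95% interval ran from -1.20 to -0.18.

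The call of Rpl3l under vehicle depended on the number of arrays and on scale. It was lost without vehicle day 7 replicate 1 (change 1.02, adjusted p = 0.0542), replicate 2 (0.88, 0.0871) or replicate 3 (1.01, 0.0656), and without vehicle day 35 replicate 1 (0.88, 0.0859). Median centring in place of quantile normalization gave 0.90 with an adjusted p of 0.0879, and Rpl3 was then the single call, at -0.83 with an adjusted p of 0.0273. With the shared spread estimated without nandrolone day 35 replicate 3, an array of neither group, Rpl3l and Rpl3 were both called, and Rpl3 stood at -0.70 with an adjusted p of 0.00542.

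Around this pair the family stayed close to 0 from day 7 to day 35 under vehicle. The median change over the 46 members was 0.02, with 25 above 0, against -0.00 over all probe sets. After Rpl3l the largest positive values were 0.32 ± 0.27 for Rpl28, 0.19 ± 0.09 for Rpl19, 0.17 ± 0.10 for Rpl7 and 0.16 ± 0.09 for Rps23, a small subunit protein at the decoding site. The largest negative values were -0.75 ± 0.37 for Rpl37-ps2, that of Rpl3, -0.44 ± 0.25 for Rps4y2, -0.37 ± 0.25 for Rps27l and -0.35 ± 0.18 for Rpl21. None of these 9 passed the test. In 15 of 46 members the arrays of the days did not overlap, against 35.3% of all probe sets. For the 37 bright standard members other than Rpl3, changes ran from -0.35 to 0.19 and no 95% interval reached below -0.75 or above 0.39.

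Under nandrolone Rpl3l and Rpl3 had the same signs, and 1 array stood against the others. Rpl3l was 11.71, 11.36 and 11.25 in nandrolone day 7 and 12.40, 12.25 and 11.63 in nandrolone day 35, a change of 0.65 ± 0.20 (adjusted p = 0.169). Rpl3 was 13.12, 12.90 and 13.00 at day 7 and 11.86, 12.28 and 13.16 at day 35, a change of -0.57 ± 0.24 (adjusted p = 0.287). The third nandrolone day 35 array, the one that stood apart in scale, thus lay within the range of the day 7 arrays for Rpl3l and above all of them for Rpl3. Without it both were called, Rpl3l at 0.89 (adjusted p = 0.0455) and Rpl3 at -0.94 (adjusted p = 0.0194). With it, 0 of 46 members were called in limma and 0.677% of all probe sets were. An unadjusted p under 0.05 was found for 3 of 46 members and for 2706 of the 18625 probe sets, a smaller share among the members.

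The other extremes under nandrolone were small or uncertain. Positive values after Rpl3l were 0.26 ± 0.30 for Rpl26l1, 0.26 ± 0.25 for Rps4y2, 0.21 ± 0.17 for Rpl7l1 and 0.10 ± 0.09 for Rps3a. Negative values were -1.24 ± 0.37 for Rpl37-ps2, -0.62 ± 0.33 for Rpl39, -0.22 ± 0.27 for Rpl28 and -0.21 ± 0.10 for Rpl22, beside that of Rpl3. None passed, and the median over the members was -0.02, against -0.01 over all probe sets. Of the 46 tested members 1, Rpl37-ps2, had nandrolone arrays that did not overlap between the days, against 16.5% of all probe sets. Of the 4 members below the filter, Rpl39l1 and Rps13 were also lower at day 35 with no overlap under nandrolone. For Rps13 this held only after normalization. Its deposited signals were 33.2, 28.4 and 27.7 at day 7 and 8.1, 15.3 and 39.9 at day 35, which overlap. Both genes were dim, and the share of 16.5% covers only probe sets past the filter.

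Averaged over both treatments, which uses all 12 arrays, Rpl3l rose and Rpl3 and Rpl37-ps2 fell. Rpl3l changed by 0.81 ± 0.14 (adjusted p = 0.00451), Rpl3 by -0.63 ± 0.17 (adjusted p = 0.0277) and Rpl37-ps2 by -0.996 ± 0.26 (adjusted p = 0.0267). This made 3 of 46 members called, 1 higher and 2 lower, against 12.6% of all probe sets, with 6.49% of all probe sets higher and 6.07% lower. In 0 members did the 6 day 7 arrays lie apart from the 6 day 35 arrays, against 6.60% of all probe sets. Rpl3l was called without any 1 of the 12 arrays, with adjusted p-values from 0.000593 to 0.0159. The call of Rpl3 was lost without any 1 of the 3 vehicle day 7, 3 nandrolone day 7 or 3 vehicle day 35 arrays, with adjusted p-values up to 0.0695 and changes from -0.82 to -0.49 over all 12 omissions. That of Rpl37-ps2 was lost without vehicle day 7 replicate 1, 2 or 3, nandrolone day 7 replicate 2, or vehicle day 35 replicate 1 or 2, with adjusted p-values up to 0.0705. On the deposited scale Rpl3l alone was called, with Rpl3 at -0.69 (adjusted p = 0.0839) and Rpl37-ps2 at -0.84 (adjusted p = 0.118), and with median centring the call of Rpl3l was lost at 0.65 (adjusted p = 0.0571) while Rpl3, at -0.83 (adjusted p = 0.00288), and Rpl37-ps2 were called.

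**Figure D2:**
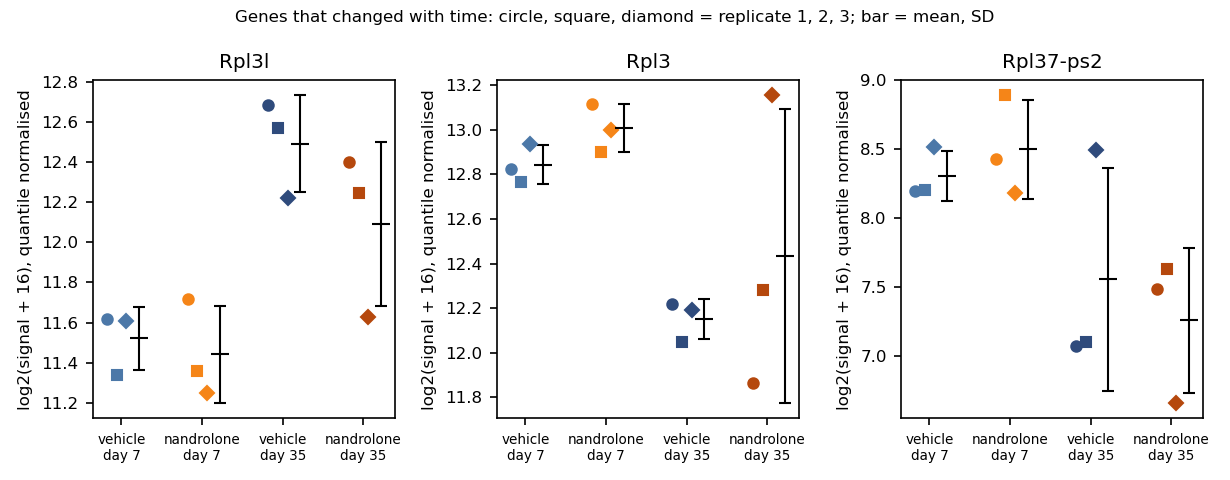
Log2 signals of Rpl3l, Rpl3 and Rpl37-ps2 are plotted for each array by group, with black bars for the mean and standard deviation of 3 arrays. Rpl3l and Rpl3 separate the vehicle days, and the third nandrolone day 35 array, a diamond, sits at 11.63 for Rpl3l, within the day 7 range, and at 13.16 for Rpl3, above all day 7 arrays.

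The signals of Rpl3l and Rpl3 given above were also set against each other array by array. The log2 difference of Rpl3l minus Rpl3, centred on its mean over the arrays, was -0.49, -0.71 and -0.61 in vehicle day 7 and 1.19, 1.25 and 0.75 in vehicle day 35. Under nandrolone it was -0.68, -0.82 and -1.03 at day 7 and 1.26, 0.69 and -0.80 at day 35. All day 35 arrays but the third of the nandrolone group thus lay above all day 7 arrays. This difference restates the signals of both genes and adds no separate evidence. It is given as a description, with no test. A second, dimmer probe set of Rpl3 did not follow the first: its change over both treatments was 0.20 ± 0.23 (adjusted p = 0.601), and the mean of both probe sets was -0.21 (adjusted p = 0.403). Rpl3l had a single probe set.

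Markers of other cell types moved with the days and with the array that stood apart. Of 16 macrophage markers 15 were on the array, Itgam of these below the filter, and none of the 14 tested was above 0 from day 7 to day 35 under vehicle, with a median of -0.67. Their summed signal ranged from 6533 to 8398 in vehicle day 7, from 4782 to 5515 in vehicle day 35, from 5371 to 17130 in nandrolone day 7 and from 5110 to 11817 in nandrolone day 35. For the 11 fibroblast markers, all tested, the ranges were 36236 to 39790, 24609 to 36711, 30881 to 69235 and 34703 to 80022 in the same order. The median centred signal of the fibroblast markers was highest on nandrolone day 35 replicate 3, at 1.24. Larger shifts stood on the same array for the markers of adipocytes, at 3.50, of smooth muscle and pericytes, at 2.21, and of Schwann cells, at 1.68, and those of endothelium stood at 1.16. The macrophage markers were highest on nandrolone day 7 replicate 3, at 1.38. Opposite to the macrophage markers, the summed signal of 7 Schwann cell markers on the array, 5 of them tested and Mag and Sox10 below the filter, was higher at day 35 under vehicle with no overlap. It ranged from 1782 to 2233 in vehicle day 7, from 3475 to 4874 in vehicle day 35, from 1729 to 3017 in nandrolone day 7 and from 3737 to 15217 in nandrolone day 35. The single Schwann cell markers were divided under vehicle: 3 of the 5 tested were above 0, with a median of 0.25, and 1 was called higher. The 7 adipocyte markers, Cidec and Lep of them below the filter, ranged from 6837 to 7641, from 4232 to 5512, from 6784 to 7991 and from 5743 to 17965 in the same order of groups. Under vehicle this sum was lower at day 35, yet 4 of the 5 adipocyte markers tested were above 0, with a median of 0.61, and 1 was called lower. Over both treatments 4 of the 5 were above 0 too, with a median of 0.86. The part of these cells in the values of Rpl3 and Rpl3l was not tested.

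Rpl37-ps2, by its symbol a pseudogene of the large subunit gene Rpl37, had lower and more variable signals. They were 8.19, 8.21 and 8.52 in vehicle day 7 and 7.07, 7.10 and 8.49 in vehicle day 35. Under nandrolone they were 8.43, 8.89 and 8.18 at day 7 and 7.49, 7.63 and 6.66 at day 35. The third vehicle day 35 array therefore lay within the day 7 range, and the nandrolone days did not overlap. Signals of ribosomal protein genes and of their many near-identical pseudogenes can share probes, and which transcript this probe set measured cannot be told from the files.

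The other members moved little over both treatments. Positive values after Rpl3l were 0.12 ± 0.07 for Rps23, 0.12 ± 0.12 for Rpl7l1, 0.12 ± 0.06 for Rps3a and 0.11 ± 0.07 for Rpl19. Negative values after the called genes were -0.36 ± 0.24 for Rpl39, a small protein of the exit tunnel, -0.24 ± 0.13 for Rpl21 and -0.22 ± 0.18 for Rps27l. For the 37 bright standard members other than Rpl3, changes ran from -0.24 to 0.12 and their 95% intervals stayed between -0.52 and 0.26, with 1 interval clear of 0. That was Rpl22, an RNA-binding large subunit protein, at -0.17 ± 0.07 (adjusted p = 0.126). The 9 bright standard members with a tract at the annotated start had a median of -0.01 and the 23 with none there 0.01. Some of the 23, Rpl12, Rpl23 and Rps23 among them, had a tract within 5 bases of that start. Whether the annotated starts are exact was not tested, so this split does not separate TOP messages from others.

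**Figure D3:**
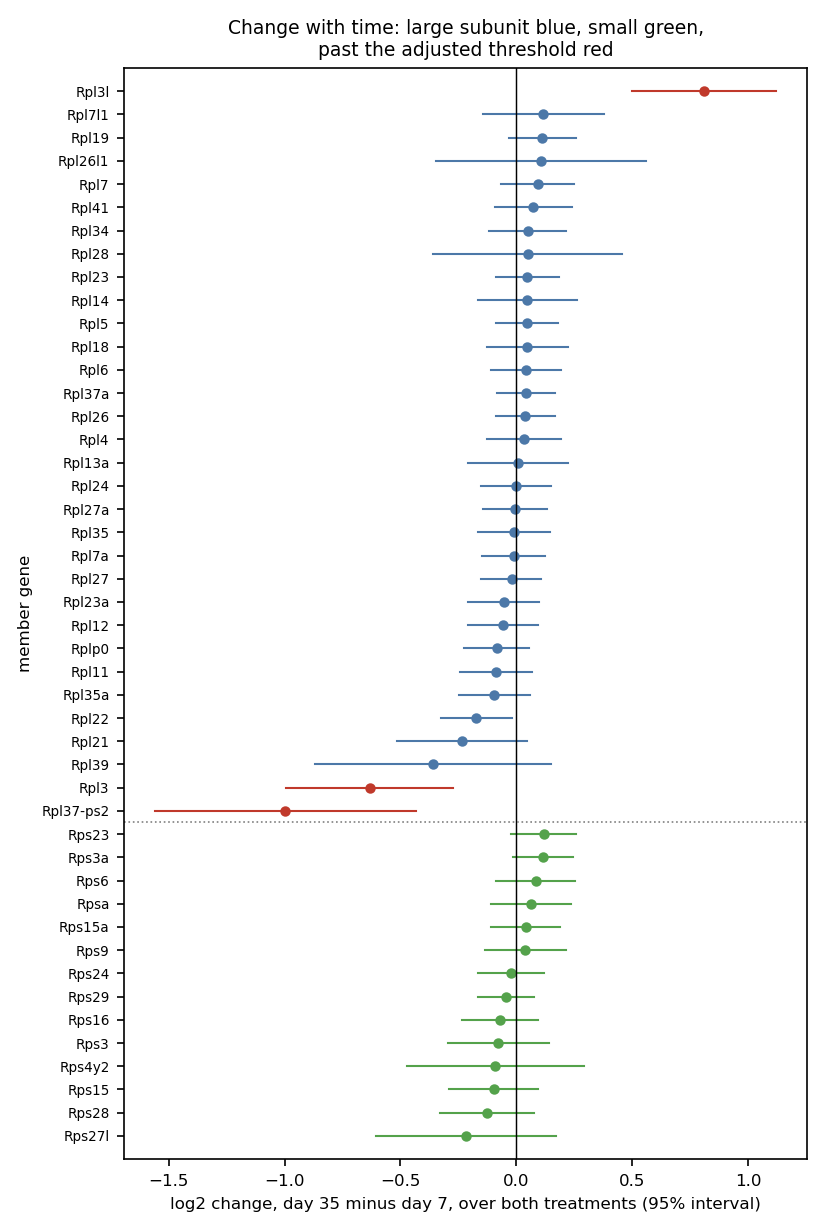
Points are log2 changes from day 7 to day 35 averaged over both treatments and lines their 95% intervals, for the 32 large and 14 small subunit members tested. Rpl3l at 0.81, Rpl3 at -0.63 and Rpl37-ps2 at -0.996 stand away from 0, and the other members lie from -0.36 to 0.12.

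Familiar members of the family showed how narrow the range was. Rplp0, the base of the stalk that recruits translation factors, had 13.17, 13.33 and 13.23 in vehicle day 7 and 13.18, 13.23 and 13.05 in vehicle day 35. Under nandrolone it had 13.30, 13.23 and 13.30 at day 7 and 13.17, 13.14 and 13.28 at day 35. The nandrolone day 7 arrays lay just above the vehicle day 35 arrays and the other pairs of groups overlapped. The change with time over both treatments was -0.09 ± 0.06 (adjusted p = 0.417). Rps6, the small subunit protein phosphorylated by S6 kinases, had 13.01, 13.02 and 13.01 in vehicle day 7, 13.01, 12.88 and 13.06 in nandrolone day 7, 13.27, 13.21 and 12.92 in vehicle day 35 and 13.13, 12.90 and 13.08 in nandrolone day 35. The groups overlapped, and its change was 0.08 ± 0.08 (adjusted p = 0.520). Rpsa, a small subunit protein also known as the laminin receptor, changed by 0.06 ± 0.08 (adjusted p = 0.643), and its further probe sets stood at 0.13 ± 0.09 and -0.19 ± 0.09. Rps29, a zinc-binding small subunit protein with the brightest probe set of the family, ranged from 13.83 to 14.00 over the 12 arrays.

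The subunits were compared by array scores, the median over the tested members of a subunit of the log2 signal centred on the gene's mean. Large subunit scores were 0.06, -0.02 and 0.01 in vehicle day 7, 0.02, -0.05 and 0.03 in nandrolone day 7, 0.05, 0.06 and -0.01 in vehicle day 35 and -0.03, -0.10 and 0.07 in nandrolone day 35. Small subunit scores in the same order were 0.07, -0.06 and 0.04, then -0.00, -0.09 and 0.02, then 0.05, 0.03 and -0.10, and last 0.02, -0.16 and 0.09. The 4 groups overlapped for both subunits, and replicate 2 of nandrolone day 35 was lowest in both. The difference of the large minus the small score ranged from -0.05 to 0.09 over the arrays. From day 7 to day 35 the mean score changed by 0.02 in the large and -0.03 in the small subunit under vehicle, and by -0.02 and 0.01 under nandrolone, within the pooled standard deviation between arrays of a group, 0.055 for the large and 0.088 for the small subunit. Between nandrolone and vehicle it differed by -0.012 in the large and -0.043 in the small subunit at day 7, within that spread, and by -0.056 and -0.009 at day 35, where the large subunit's value was about as large as the spread. On the deposited scale the day 35 values had the opposite sign, 0.041 and 0.086. Median centring in place of quantile normalization moved the change under nandrolone to -0.30 and -0.26, so the level of the family against the array's middle depended on scale. The 3 called members were all among the 32 large subunit genes tested, and 0 of the 14 small subunit genes were called in limma in any of the 7 comparisons. Of all probe sets 12.6% were called over both treatments, 5.61% under vehicle, 0.677% under nandrolone and 0% for nandrolone or the interaction. With array quality weights, where 5274 of the 18625 probe sets were called under vehicle, the small subunit gene Rps27l was among them. For time over both treatments an unadjusted p under 0.05 was found for 4 of the 32 large and 0 of the 14 small subunit genes, against 5357 of the 18625 probe sets. No difference between the subunits was tested.

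**Figure D4:**
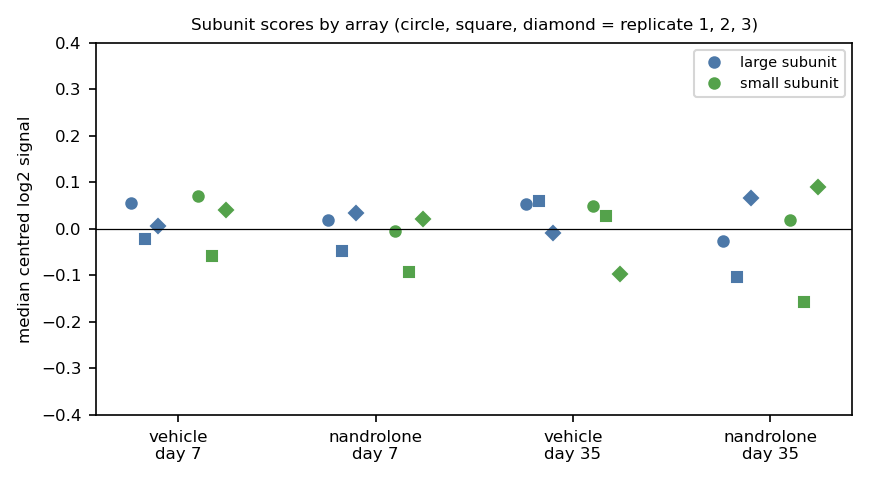
Each point is the score of 1 array, the median centred log2 signal of the large (blue) or small (green) subunit members, for 3 arrays in each of 4 groups. All points lie between -0.16 and 0.09, and the groups overlap in both subunits.

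No member was called for nandrolone at either day. At day 7 limma called 0 of 46 members, with 1 at an unadjusted p under 0.05, and 0% of all probe sets, with 331 at an unadjusted p under 0.05. That member was Rps27l, a paralog of Rps27 known as a p53 target in human and mouse cells. It had 9.19, 9.18 and 9.37 in vehicle and 8.70, 8.73 and 8.43 in nandrolone, with no overlap and a difference of -0.63 ± 0.25 (adjusted p = 1). In 3 of 46 members the groups did not overlap at day 7, against 7.66% of all probe sets. The other most negative values were -0.20 ± 0.33 for Rpl39, -0.16 ± 0.18 for Rpl21, -0.13 ± 0.14 for Rpl13a and -0.11 ± 0.30 for Rpl26l1. The most positive were 0.19 ± 0.37 for Rpl37-ps2, 0.16 ± 0.24 for Rpl3, 0.14 ± 0.27 for Rpl28, 0.09 ± 0.10 for Rpl7 and 0.07 ± 0.08 for Rpl26. The median was -0.01, against -0.00 over all probe sets. For the 37 bright standard members other than Rpl3, the 95% intervals ran from -0.56 to 0.32.

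At day 35 limma again called 0 of 46 members, with 2 at an unadjusted p under 0.05, and 0% of all probe sets, with 1590 at an unadjusted p under 0.05. Rps4y2, a paralog of Rps4x, had 5.83, 5.33 and 5.64 in vehicle and 6.04, 5.98 and 6.67 in nandrolone, a difference of 0.63 ± 0.25 (adjusted p = 0.562) with no overlap. Its signals were dim, near the filter. Rpl39 had 7.86, 7.16 and 7.81 in vehicle and 7.47, 6.85 and 6.36 in nandrolone, which overlap, a difference of -0.72 ± 0.33 (adjusted p = 0.562). Rpl3l stood at -0.40 ± 0.20 and Rpl3 at 0.28 ± 0.24, with 95% intervals from -0.84 to 0.04 and from -0.23 to 0.79. The remaining extremes were 0.19 ± 0.30 for Rpl26l1, 0.18 ± 0.17 for Rpl7l1, 0.16 ± 0.14 for Rps3, -0.40 ± 0.27 for Rpl28, -0.33 ± 0.25 for Rps27l and -0.30 ± 0.37 for Rpl37-ps2. In 4 of 46 members the groups did not overlap, against 11.6% of all probe sets, and the median was -0.07, against -0.04 over all probe sets.

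Over both days nandrolone also gave 0 calls among members and 0% of all probe sets, with 1 member and 889 probe sets at an unadjusted p under 0.05. Rps27l was -0.48 ± 0.18 (adjusted p = 0.863), Rpl39 -0.46 ± 0.24, Rpl3l -0.24 ± 0.14, Rpl28 -0.13 ± 0.19 and Rps28 -0.10 ± 0.09. On the positive side stood Rps4y2 at 0.28 ± 0.18, Rpl3 at 0.22 ± 0.17, Rpl7l1 at 0.08 ± 0.12, Rps3 at 0.05 ± 0.10 and Rplp0 at 0.04 ± 0.06. The 95% intervals of the 37 bright standard members other than Rpl3 lay between -0.33 and 0.27.

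Whether the nandrolone effect differed between the days was tested as an interaction, the effect at day 35 minus that at day 7. It gave 0 calls among the members and 0% of all probe sets, with 0 members and 745 probe sets at an unadjusted p under 0.05. The largest values were 0.69 ± 0.35 for Rps4y2, 0.30 ± 0.42 for Rpl26l1, 0.30 ± 0.36 for Rps27l, 0.23 ± 0.26 for Rpl21 and 0.20 ± 0.20 for Rps3. The most negative were -0.53 ± 0.38 for Rpl28, -0.51 ± 0.47 for Rpl39, -0.49 ± 0.52 for Rpl37-ps2, -0.32 ± 0.29 for Rpl3l and -0.19 ± 0.15 for Rpl4. The 95% interval for Rpl3l ran from -0.95 to 0.30, so these arrays do not show whether its rise with time was the same under vehicle and nandrolone.

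No paralog other than Rpl3l passed the test in any of the 7 comparisons. Rpl7l1, a nucleolar relative of Rpl7, had 9.18, 8.95 and 8.89 in vehicle day 7, 9.04, 9.27 and 8.76 in vehicle day 35, 8.99, 8.87 and 9.10 in nandrolone day 7 and 9.08, 9.24 and 9.28 in nandrolone day 35. The groups overlapped under vehicle, and its second probe set stood at 0.35 ± 0.15 over both treatments without passing (adjusted p = 0.149). Rpl26l1, a close copy of Rpl26, ranged from 5.61 to 6.66 with overlap in every comparison of groups. Of the 6 genes with several probe sets, Rps24 also differed between them. Its bright probe set changed by -0.02 ± 0.07 over both treatments, and a dim one was called at -0.60 ± 0.16 (adjusted p = 0.0321). The dim probe set of Rpl7 stood at -0.11 ± 0.24, and that of Rpl14 was below the filter.

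Among the genes that build ribosomes, most of those called with time were lower. From day 7 to day 35 over both treatments, 14 of 75 tested ribosome biogenesis genes were lower and 1 was higher, with a median of -0.24, against 1130 lower and 1208 higher of all 18625 probe sets and a median of -0.01. Tsr1, a small subunit assembly factor, changed by -0.73 ± 0.12 (adjusted p = 0.00332). Gnl3, the nucleolar GTPase nucleostemin, changed by -0.80 ± 0.14, Nhp2, a core protein of pseudouridylation guides, by -0.73 ± 0.13 and Dimt1, an 18S ribosomal RNA methylase, by -0.64 ± 0.13. The higher gene was Ncl, nucleolin, at 0.43 ± 0.10. No difference between this list and the ribosomal proteins was tested.

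RNA polymerase I makes the precursor of the ribosomal RNAs. Of 20 tested genes of the polymerase and its factors, 5 were lower and none higher over both treatments, with a median of -0.10. Polr1a, the largest subunit, changed by -0.86 ± 0.23 (adjusted p = 0.0307) and Polr1d, shared with RNA polymerase III, by -0.54 ± 0.13. Polr2l and Polr2k, subunits shared by all nuclear polymerases, changed by -0.41 ± 0.12 and -0.38 ± 0.11. The transcription factor gene Ubtf was called under vehicle, at 0.69 ± 0.18 (adjusted p = 0.0447), and over both treatments it stood at 0.39 ± 0.13 (adjusted p = 0.0682).

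The ribosomal proteins of mitochondria, a separate ribosome, had 11 of 73 genes lower and none higher over both treatments, with a median of -0.25. Mrps21 changed by -0.54 ± 0.09 (adjusted p = 0.00342), Mrpl33 by -0.62 ± 0.11, Mrpl45 by -0.99 ± 0.18 and Mrpl32 by -0.57 ± 0.12. Of 37 initiation factor genes 9 were lower and 2 higher, with a median of -0.08. Eif4e2, a cap-binding protein, changed by -1.30 ± 0.12 (adjusted p = 0.000198), Eif3j by -0.55 ± 0.09, Eif4e, the main cap-binding protein, by -0.57 ± 0.12 and Eif2s2, a subunit of the factor that brings the initiator transfer RNA, by -0.42 ± 0.09. A further list held elongation factors, other TOP genes and genes listed with them, 13 of them tested, with a median of 0.05. Eef2k, the kinase that inhibits elongation factor 2 and not itself such a factor, rose by 0.50 ± 0.14. Eef1d rose by 0.31 ± 0.09 and Eef1e1 changed by -0.51 ± 0.11. Rack1, a small subunit protein outside the symbol rule, stood at -0.05 ± 0.08.

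Within the treatments fewer of these genes passed, as did fewer probe sets in all, 1045 under vehicle and 126 under nandrolone against 2338 over both. Under vehicle Dimt1 changed by -0.74 ± 0.19 and Ncl rose by 0.50 ± 0.13 in the biogenesis list, Eif4e2, Eif4e and Eif3j changed by -1.41 ± 0.17, -0.78 ± 0.17 and -0.52 ± 0.12, and Mrpl32, Mrpl50 and Mrps21 changed by -0.66 ± 0.16, -0.77 ± 0.20 and -0.48 ± 0.13. Naca, a subunit of a ribosome-bound complex on new chains, rose by 0.52 ± 0.14 and Eef2k by 0.80 ± 0.20. Under nandrolone Tsr1 changed by -0.90 ± 0.17 (adjusted p = 0.0386) and Eif4e2 by -1.19 ± 0.17 (adjusted p = 0.0216). No gene of these lists was called for nandrolone at day 7, at day 35 or over both days, or in the interaction, where limma called 0 probe sets in all. Of the 14 macrophage markers tested, 0 were above 0 over both treatments, with a median of -0.54. There 2 were called lower, against 6.07% of all probe sets, and 0 were called under vehicle or under nandrolone. Under nandrolone 2 were above 0, and the summed signals given above overlapped between the days. The part of macrophages in the list counts was not tested.

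Counts in these lists depended on single arrays and scale. The biogenesis count of 15 was 8 without vehicle day 7 replicate 1, 2 or 3, nandrolone day 7 replicate 2 or vehicle day 35 replicate 1, 9 without vehicle day 35 replicate 3 and 13 without nandrolone day 35 replicate 3. On the deposited scale, where 953 in place of 2338 probe sets were called in all, it was 2, the mitochondrial count was 1 in place of 11 and the initiation factor count 2 in place of 11. The mitochondrial count was 19 without nandrolone day 35 replicate 2. The initiation factor count was 6 or 7 without vehicle day 7 replicate 1, 2 or 3 or vehicle day 35 replicate 1 or 2. The count of 5 for RNA polymerase I was from 0 to 4 without 1 array and that of 3 for the list of elongation and other TOP genes from 1 to 3.

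**Figure D5:**
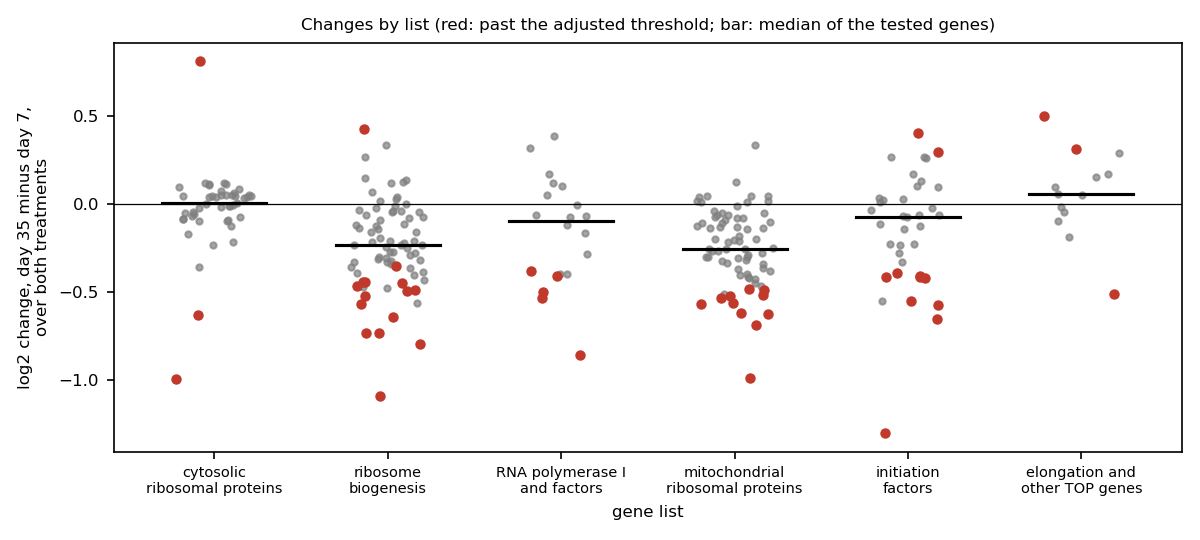
Each point is the log2 change of 1 gene from day 7 to day 35 over both treatments, by gene list, with called genes in red and a bar at the median of the tested genes. The bar is near 0 for the cytosolic ribosomal proteins, at -0.24 for ribosome biogenesis and at -0.25 for mitochondrial ribosomal proteins.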

How the data were processed

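Per the labels, RNA was hybridised to one-colour Affymetrix arrays, and per the submitters' processing notes the deposited values are MAS5 signal intensities per probe set; the MAS5 version, scaling target and filters are not given in the sources used here. A second deposited table has 12 columns numbered without a key to the samples, and these were not used. Groups were taken from sample titles. From 31099 probe sets 57 controls were left out. The deposited intensities were given a pseudocount of 16, taken to log2 and quantile normalized, and a filter on the mean dropped the dimmest 40%, which left 18625. In the platform annotation 20826 probe sets carry 1 gene, 436 more than 1 and 9780 no gene. Of the first, 20758 had an ID in RefSeq's GRCr8 table, 48 of the 50 members among them.

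Limma 3.58.1 in R 4.3.3 fitted 4 group means with an intensity trend, with 8 residual degrees of freedom shared by all groups. P-values of the 7 comparisons were two-sided, and Benjamini-Hochberg adjusted values over every probe set that passed the filter were read at 0.05. Precision is limited by having 3 arrays in a group. The pipeline was tested on simulated data. Members and lists were chosen with earlier results of these data known. Named are called members, the 5 largest values in each direction, paralog pairs and fixed genes, and up to 4 called genes per list. The split of the members at a mean of 12 and the description of genes as bright were chosen after the data were examined. Equal replicate numbers were checked as pairs by correlating group-centred values: every r was above 0.1 only between the nandrolone groups, at 0.162, 0.265 and 0.416. Alternatives are given in the closing section.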

Additional observations from a re-analysis of the deposited data

How the results depend on the processing

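Counts of called members for time moved beyond 1.5 times the reported count in some settings. Without 1 array 10 of these counts fell beyond it and 1 rose, and under the other settings 1 fell and 5 rose. For time over both treatments the count of 3 was 1 on the deposited scale and 5 with array quality weights; for time under vehicle the count of 1 was 5 with weights, 2 in a fit of only the groups compared and 2 with nandrolone day 35 replicate 3 left out of the shared spread, a setting chosen after seeing the data; for time under nandrolone 0 became 2 with weights. Weights also raised the number of all probe sets called, to 4570 over both treatments, 5274 under vehicle and 293 under nandrolone. In the main fit these were 2338, 1045 and 126 of the 18625 tested. The fit of only the groups compared called 2570 probe sets under vehicle, and the deposited scale 953 over both treatments. Without 1 array the counts of members ranged from 1 to 3 over both treatments, from 0 to 1 under vehicle and from 0 to 2 under nandrolone. With the replicate number as a block they were 3, 1 and 0, and pairing changed no call of a member. All settings gave 0 members for nandrolone and the interaction. The main fit called 0 probe sets there in all, so these counts could not fall. With median centring the counts stayed at 1 for time under vehicle, with Rpl3 called in place of Rpl3l, and went to 2 for time over both treatments, Rpl3 and Rpl37-ps2. Subunit scores moved with scale. On the deposited scale the large subunit's change was -0.075 for time under vehicle and 0.041 for nandrolone at day 35, where the reported value was -0.056, and the small subunit's 0.086 for the latter, where it was -0.009. With median centring the changes of the large and small subunit were -0.086 and -0.121 for time under vehicle, -0.302 and -0.258 under nandrolone, -0.098 and -0.132 for nandrolone at day 7 and -0.314 and -0.269 at day 35. The causes were not tested. The signs of Rpl3l, Rpl3 and Rpl37-ps2 held in all settings run for them. No setting used the second probe set of Rpl3 alone, which stood at 0.20 over both treatments and 0.41 under nandrolone. With the mean over probe sets of a gene, Rpl3 stood at -0.21 over both treatments and was not called in limma (adjusted p = 0.403). Signal over background limits Rpl28, Rps4y2 and Rpl26l1, which lie near the filter.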
